A study of Sus scrofa with 6 samples.

Results

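Genes for cyclin-dependent kinase (CDK) inhibitors were examined in RNA-seq data of porcine oocytes, the pig egg cells matured in culture. The genes were chosen by name, as CDKN1A, CDKN1B and CDKN1C of the Cip/Kip family and CDKN2B, CDKN2C and CDKN2D of the INK4 family, which made 6 of the 29861 genes in the table. They were proposed with their values in these samples already known, so their differences between the groups are given as a description, with no test. CDKN2A, the remaining INK4 gene, was not listed in the table under that name and so was not analysed here. A gene listed as P14ARF, past CDKN2B on chromosome 1 at 200774496 to 200799149, did not exceed 0.0511 FPKM in any sample. All 6 inhibitors had a value in each of the 6 samples. Of these, 4 reached the mean of 1 FPKM over the samples that was asked of genes entering the statistical model. FPKM is the number of fragments scaled to the length of the transcript and to all mapped fragments of the sample, so levels of different genes can be compared per length.

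The study asked how nicotinamide mononucleotide (NMN), a precursor of the coenzyme NAD, acts on oocytes under heat stress (HS). Control oocytes were matured without heat or NMN, heat-stressed oocytes spent 24 h at a raised temperature at the start of maturation, and NMN-supplemented oocytes had NMN in the medium during the same heat. The labels call these groups control, heat stress and heat stress+NMN, with 2 samples in each. The oocytes of all groups came from abattoir ovaries and were cultured with their cumulus cells. The methods give 100 oocytes per group and the metaphase II stage, the arrest before fertilization, whereas the labels give the germinal vesicle (GV) stage, the earlier arrest, and a time of 24 h. Neither source says that the samples of a group came from separate collections of oocytes, so that P-values measured only the spread between these samples, which may be technical.

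CDK inhibitors are small proteins that bind CDKs or CDK-cyclin complexes and hold back the cell cycle. Cip/Kip proteins bind a broad range of cyclin-CDK complexes, while INK4 proteins bind CDK4 and CDK6 and keep them from D-type cyclins, which leaves the RB protein active. Oocyte maturation is driven by CDK1 with cyclin B, which becomes active at the end of the GV arrest and is high again at the metaphase II arrest. CDKN1C is also known as an imprinted gene, expressed mainly from the maternal copy in somatic and placental tissue.

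The oocyte origin of the RNA was checked first. Of 15 oocyte markers, 13 were tested. DDX4 and FIGLA did not enter the model, with no more than 0.0635 and 0.676 FPKM in any sample. The summed level of all 15 was 3475 to 3715 FPKM in control oocytes, 3399 to 3404 under HS and 2946 to 3212 under HS with NMN. The groups did not overlap. BMP15 held the largest part of the sum and was above control in both heated groups. It had 1606 and 1646 FPKM in control oocytes, 1861 and 1940 under HS and 1820 and 1751 under HS with NMN. The next largest, MOS and GDF9, were below control in both heated groups. Of 19 cumulus and granulosa cell markers in the table, 16 were below 1 FPKM in every sample and 4 were at 0 throughout (INHA, AMH, KRT8 and KRT18), while INHBA, PGR and SERPINE2 reached 1 FPKM. Without INHBA, their sum was 3.35 and 3.43 FPKM in control oocytes, 3.66 and 3.67 under HS and 3.94 and 4.14 under HS with NMN. INHBA itself had 16.4 and 13.2 FPKM in control oocytes, 10.2 and 6.44 under HS and 4.35 and 10.2 under HS with NMN. The part of these marker differences in the results on the inhibitors was not tested.

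CDKN1C was the CDK inhibitor whose level differed most between the groups, and the bases before its start are therefore shown beside those of CDKN1A and CDKN2D, the 2 inhibitors with levels above 2 FPKM in every sample. Each line gives the 250 bases upstream of the annotated start in the direction of the gene, from RefSeq's Sscrofa11.1 genome, which is also the build of the deposited coordinates, and capitals mark the letters GGGCGG, known as the GC box, read on either strand. The CDKN1C sequence is at chr2:2022093-2022342 on the minus strand, the CDKN1A sequence at chr7:32354526-32354775 on the plus strand and the CDKN2D sequence at chr2:69339999-69340248 on the minus strand.
CDKN1C: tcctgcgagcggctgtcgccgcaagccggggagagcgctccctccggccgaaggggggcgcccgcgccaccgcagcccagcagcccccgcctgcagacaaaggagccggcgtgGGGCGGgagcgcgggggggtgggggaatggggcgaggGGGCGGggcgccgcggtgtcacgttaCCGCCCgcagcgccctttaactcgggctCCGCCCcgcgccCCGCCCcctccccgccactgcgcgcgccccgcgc
CDKN1A: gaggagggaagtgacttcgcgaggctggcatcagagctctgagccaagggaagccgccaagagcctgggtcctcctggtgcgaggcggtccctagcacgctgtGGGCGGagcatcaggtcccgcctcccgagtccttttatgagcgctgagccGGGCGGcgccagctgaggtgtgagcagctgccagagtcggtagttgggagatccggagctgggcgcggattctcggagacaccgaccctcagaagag
CDKN2D: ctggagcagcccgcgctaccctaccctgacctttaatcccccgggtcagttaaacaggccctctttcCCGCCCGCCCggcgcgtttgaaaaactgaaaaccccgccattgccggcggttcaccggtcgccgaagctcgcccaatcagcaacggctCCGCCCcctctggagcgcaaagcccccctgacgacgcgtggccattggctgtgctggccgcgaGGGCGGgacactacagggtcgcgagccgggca

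In windows from 250 bases before to 50 bases after the start, CDKN1C held 7 copies of GGGCGG, of which 5 are in the printed bases, while CDKN1A held 2 and CDKN2D 4, with 2 of these overlapping. At least 1 copy was found in 5 of the 6 inhibitors, all but CDKN2B, and in 48.9% of the 20635 windows of protein-coding genes. Each window was placed at the outermost annotated start of its gene. CDKN2B has 4 annotated transcripts, and any other starts were not examined. At least 7 copies were found in 2.68% of all windows. GC content was 80.7% in the CDKN1C window, against a median of 58% over all windows, and 4.01% of windows had as much or more. The letters CCAAT were found on either strand in 2 inhibitors, CDKN1C and CDKN2D, and in 35.7% of windows. None of the 6 held GAANNTTC, the core of the heat shock element, TATAAA or GTAAACA, a forkhead motif, which were present in 6.47%, 11.6% and 2.68% of windows. These are matches of letters in a short window, and no binding was measured.

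CDKN1C encodes p57Kip2, a Cip/Kip inhibitor of cyclin-CDK complexes. The gene lies on chromosome 2 at 2019391 to 2022092, minus strand, with 4 exons in its longest annotated transcript. Its level was 3.35 and 3.90 FPKM in control oocytes, 0.860 and 0.686 under HS and 1.80 and 1.48 under HS with NMN. The control samples were the highest and the heat-stressed samples the lowest, NMN-supplemented samples lay between them, and no groups overlapped. The group means were 3.62 ± 0.390, 0.773 ± 0.123 and 1.64 ± 0.229 FPKM (SD, n = 2 each). Thus the mean in heat-stressed oocytes was 0.213 times that of control oocytes, and that of NMN-supplemented oocytes was 2.12 times that of heat-stressed and 0.453 times that of control oocytes. The NMN-supplemented mean lay 30.5% of the way from the heat-stressed to the control mean.

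**Figure D1:**
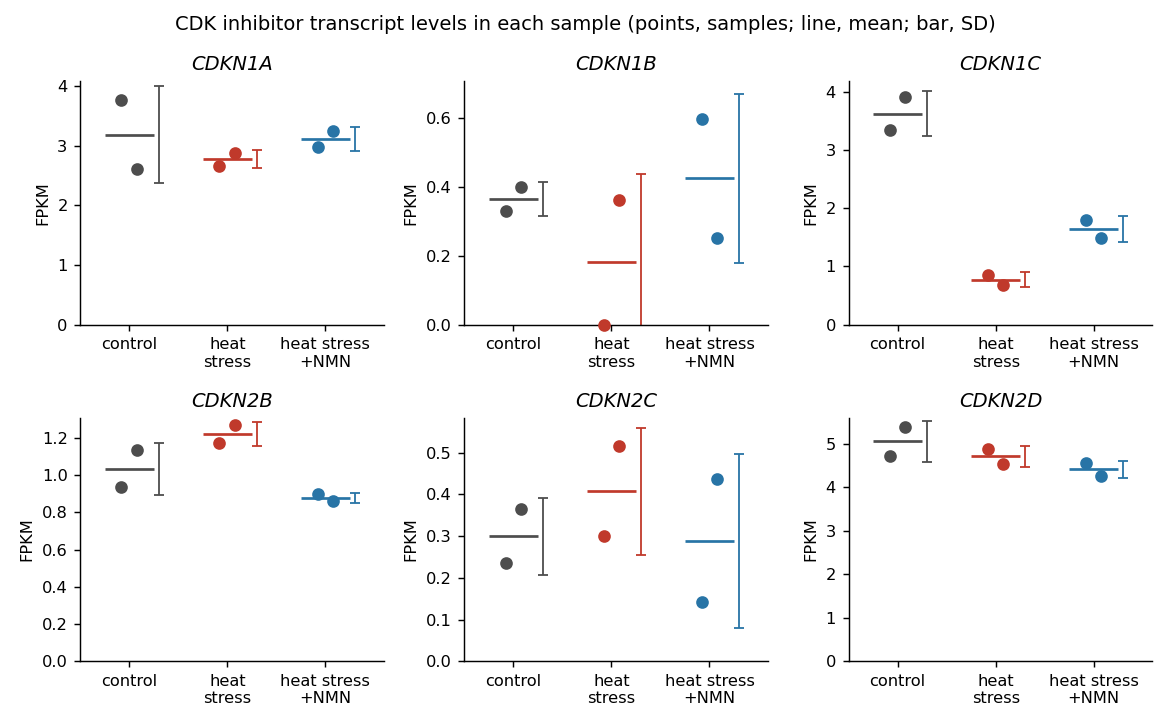
FPKM (vertical axes, each with its own range from 0) of the 6 CDK inhibitors in each of the 3 groups, with points for the 2 samples of a group, a line for their mean and a bar for the SD, which stops at 0 where it would pass it. CDKN1C is at 3.35 and 3.90 in control oocytes, 0.860 and 0.686 under HS and 1.80 and 1.48 under HS with NMN, while the values of CDKN1A and CDKN2D stay within 2.61 to 3.76 and 4.27 to 5.39.

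On the log2(FPKM + 1) scale, which understates the change of genes with low values, CDKN1C differed by -1.38 between heat-stressed and control oocytes, 0.57 when NMN was added to HS and -0.81 between NMN-supplemented and control oocytes, each with a standard error of 0.14. The median difference of all 4713 tested genes was 0.05, 0.08 and 0.11 in the same comparisons. CDKN1C ranked 19th from the lowest of 4713 genes after heat stress alone, 94th from the highest when NMN was added and 428th from the lowest against control. These ranks are a description, as CDKN1C was chosen with its values in view. With 2 samples against 2, no exact permutation test, taken as two-sided, can give a single gene less than P = 0.333. The comparisons with control share the control samples, and those with heat-stressed oocytes share the heat-stressed samples, so the differences of a gene are not independent of each other. Since FPKM is a share of the fragments, fewer CDKN1C transcripts per oocyte and more RNA of other genes cannot be told apart, nor can fewer oocytes holding the transcript and less of it in each oocyte.

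CDKN1A, which encodes p21Cip1, a Cip/Kip inhibitor known to rise when cells arrest under stress, had 3.76 and 2.61 FPKM in control oocytes, 2.66 and 2.88 under HS and 2.97 and 3.25 under HS with NMN. Both other groups lay within the range of the control samples, and only the NMN-supplemented and heat-stressed samples did not overlap. The log2 differences were -0.14 for heat-stressed and -0.01 for NMN-supplemented against control, and 0.12 between NMN-supplemented and heat-stressed oocytes, all smaller than their standard error of 0.16. When the first control sample was left out, the differences of heat-stressed and NMN-supplemented oocytes from control turned to 0.07 and 0.19, and without the second they were -0.34 and -0.21.

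CDKN1B, which encodes p27Kip1, the Cip/Kip inhibitor tied to the quiescent state of cells, was close to the floor of the data. It had 0.330 and 0.399 FPKM in control oocytes, 0 and 0.362 under HS and 0.597 and 0.251 under HS with NMN. All groups overlapped, and the sample at 0 was the first heat-stressed one. The gene did not enter the model, with a mean of 0.323 FPKM over the samples.

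Among the INK4 genes, CDKN2D, which encodes p19INK4d, had the highest level of all 6 inhibitors in each sample. Its values were 4.73 and 5.39 FPKM in control oocytes, 4.88 and 4.54 under HS and 4.55 and 4.27 under HS with NMN. NMN-supplemented samples were below the control samples without overlap, and the other pairs of groups overlapped. The log2 differences were -0.08, -0.08 and -0.16 in the 3 comparisons, in the order used for CDKN1C, with a standard error of 0.12.

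CDKN2B, which encodes p15INK4b, an inhibitor that TGF-beta signalling is known to induce, had 0.935 and 1.13 FPKM in control oocytes, 1.18 and 1.27 under HS and 0.897 and 0.860 under HS with NMN. Heat-stressed samples were the highest and NMN-supplemented samples the lowest, with no overlap between any groups. The log2 differences were 0.13, -0.24 and -0.11 with a standard error of 0.12, and its mean over the samples, 1.04 FPKM, only just passed the minimum. CDKN2B lies on chromosome 1 at 200666250 to 200770880, plus strand. The deposited table gives it the same, wider locus as the long non-coding RNAs LOC106509137, which runs antisense across the start of the gene, and LOC106509136, which ends upstream of it at 200644584. The library kit named in the methods does not mark strand, so reads of the overlapping parts cannot be told apart, though LOC106509137 itself was listed at no more than 0.0434 FPKM. LOC106509136 was listed at 0.337 to 1.003 FPKM.

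CDKN2C, which encodes p18INK4c, had 0.235 and 0.365 FPKM in control oocytes, 0.300 and 0.515 under HS and 0.142 and 0.436 under HS with NMN. The groups overlapped in every comparison, and the gene did not enter the model, with a mean of 0.332 FPKM.

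Groups did not overlap for 2 of the 6 inhibitors between heat-stressed and control oocytes (CDKN1C and CDKN2B), where 54.7% of all tested genes did not overlap. The count was 3 of 6 between NMN-supplemented and heat-stressed oocytes (CDKN1A, CDKN1C and CDKN2B), against 53.5%, and 3 of 6 between NMN-supplemented and control oocytes (CDKN1C, CDKN2B and CDKN2D), against 69.9%. Nothing is read from these counts of members, which were chosen with the values in view. Over all tested genes, after Benjamini-Hochberg adjustment, limma called 0 genes after HS and 0 when NMN was added to HS, with 1074 and 641 genes at an unadjusted P under 0.05. Between NMN-supplemented and control oocytes 21.5% of the tested genes were called.

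**Figure D2:**
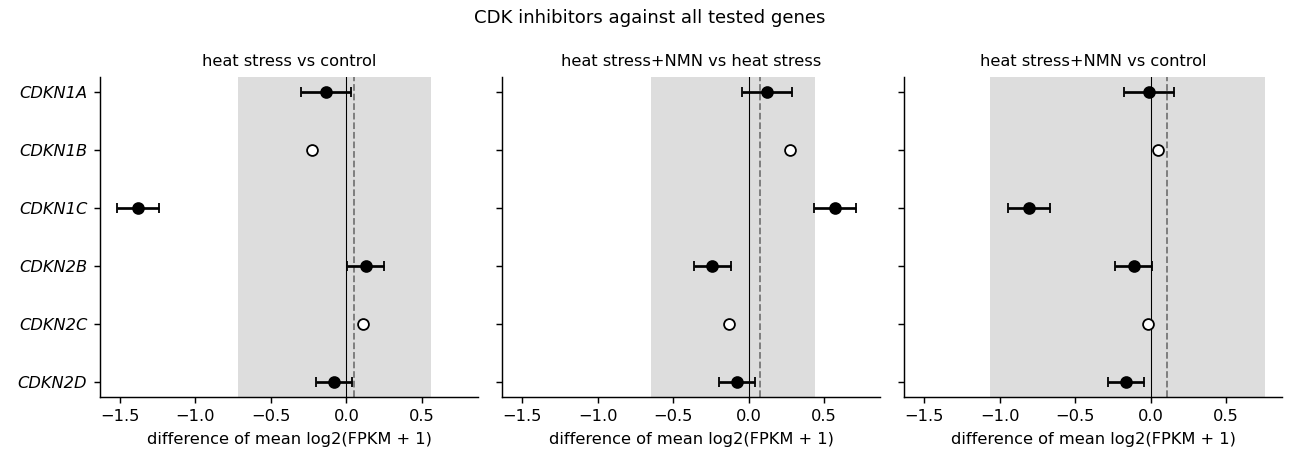
Difference of mean log2(FPKM + 1) (horizontal axis) of the 6 CDK inhibitors in the 3 comparisons, with standard errors for the 4 tested genes (filled points) and none for CDKN1B and CDKN2C (open points); the grey band spans the 5th to 95th percentile of the 4713 tested genes and the dashed line is their median. CDKN1C lies outside the band between heat-stressed and control oocytes (-1.38) and when NMN was added to HS (0.57), and inside it at -0.81 between NMN-supplemented and control oocytes.

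The order of the inhibitors by FPKM differed between the groups mainly in the place of CDKN1C. In control oocytes CDKN2D stood first with a mean of 5.06 FPKM, followed by CDKN1C and CDKN1A, whose samples overlapped, then by CDKN2B at 1.03 FPKM, and by CDKN1B and CDKN2C, which also overlapped. In heat-stressed oocytes CDKN1C came after CDKN2D, CDKN1A and CDKN2B with 4.71, 2.77 and 1.22 FPKM, and its samples did not overlap those of CDKN2B. In NMN-supplemented oocytes it was again above CDKN2B, between CDKN1A with 3.11 and CDKN2B with 0.879 FPKM. CDKN1C had a higher level than 52.2% and 57.2% of the tested genes in control oocytes, than 4.05% and 2.10% under HS and than 28.7% and 20.5% under HS with NMN.

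Ratios within a sample do not depend on how samples were scaled to each other. CDKN1C made up 45.0% and 56.5% of the summed Cip/Kip FPKM in control oocytes, 24.4% and 17.4% under HS and 33.6% and 29.7% under HS with NMN. The ratio of CDKN1C to CDKN2D was 0.708 and 0.723 in control oocytes, 0.176 and 0.151 under HS and 0.396 and 0.347 under HS with NMN. Control samples had the highest and heat-stressed samples the lowest values of both measures, without overlap between the groups. The sum of the Cip/Kip genes divided by that of the INK4 genes was 1.26 and 1.002 in control oocytes, 0.554 and 0.622 under HS and 0.961 and 0.895 under HS with NMN, in the same order. CDKN2D made up 80.2% and 78.3% of the INK4 sum in control oocytes, 76.8% and 71.8% under HS and 81.4% and 76.7% under HS with NMN. Its share in heat-stressed samples was below that in control samples without overlap, and the NMN-supplemented samples overlapped with both.

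**Figure D3:**
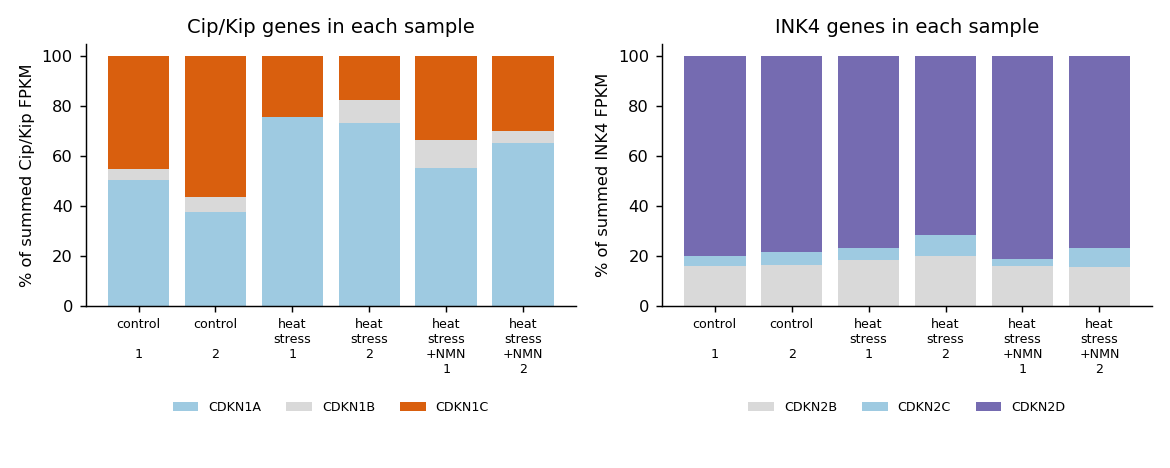
Share of each gene in the summed FPKM of its family (stacked bars, % on the vertical axis) in each of the 6 samples, for the Cip/Kip genes on the left and the INK4 genes on the right. CDKN1C takes 45.0% and 56.5% of the Cip/Kip sum in control samples and 17.4% to 33.6% in the other 4, while CDKN2D takes 71.8% to 81.4% of the INK4 sum.

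The composition of the transcript was compared with the differences, because libraries can differ in how well GC-rich transcripts are recovered. Across the 4713 tested genes, Spearman's rho between the GC content of the longest transcript and the log2 difference was -0.48 for heat-stressed against control, -0.13 for NMN-supplemented against heat-stressed and -0.42 for NMN-supplemented against control oocytes. This is a description across genes of the same libraries. From the fifth of genes with the lowest GC content to the fifth with the highest, the median difference between heat-stressed and control oocytes went from 0.25 to -0.21. The CDKN1C transcript has 63.1% GC, against 56.2% for CDKN1A, 56.8% for CDKN2D, 51.9% for CDKN2C, 42.5% for CDKN1B and 37.6% for CDKN2B.

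Of the 149 other tested genes within 1 percentage point of the GC content of CDKN1C, whose median difference between heat-stressed and control oocytes was -0.24, 0 were lower than CDKN1C. When NMN was added to HS, 3 of the 149 were higher than CDKN1C, and between NMN-supplemented and control oocytes 27 were lower. CDKN1C was chosen with its values in view, so these counts are a description and nothing is read from them. With the GC trend removed from each sample, a choice made after seeing the data, the differences of CDKN1C were -1.06, 0.57 and -0.49, with a standard error of 0.15. Those of CDKN2B became -0.11, -0.36 and -0.47 (SE 0.13), so that CDKN2B and CDKN1C differed by similar amounts between NMN-supplemented and control oocytes. CDKN2B has 4 annotated transcripts, and the correction used the GC content of the longest. Which of them the reads came from is not known. For the other inhibitors this correction turned signs between heat-stressed and control oocytes, to 0.13 for CDKN1A and 0.18 for CDKN2D. It also turned the differences of CDKN1A and CDKN2D between NMN-supplemented and control oocytes to 0.37 and 0.22, and that of CDKN2D when NMN was added to HS to 0.04. Scaling to the sum outside the mitochondrial genome moved the median of all tested genes to -0.22 after HS and 0.35 when NMN was added. CDKN2B after HS, then at -0.04, was above the median with either scaling, and CDKN2D when NMN was added, then at 0.23, was below it with either.

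**Figure D4:**
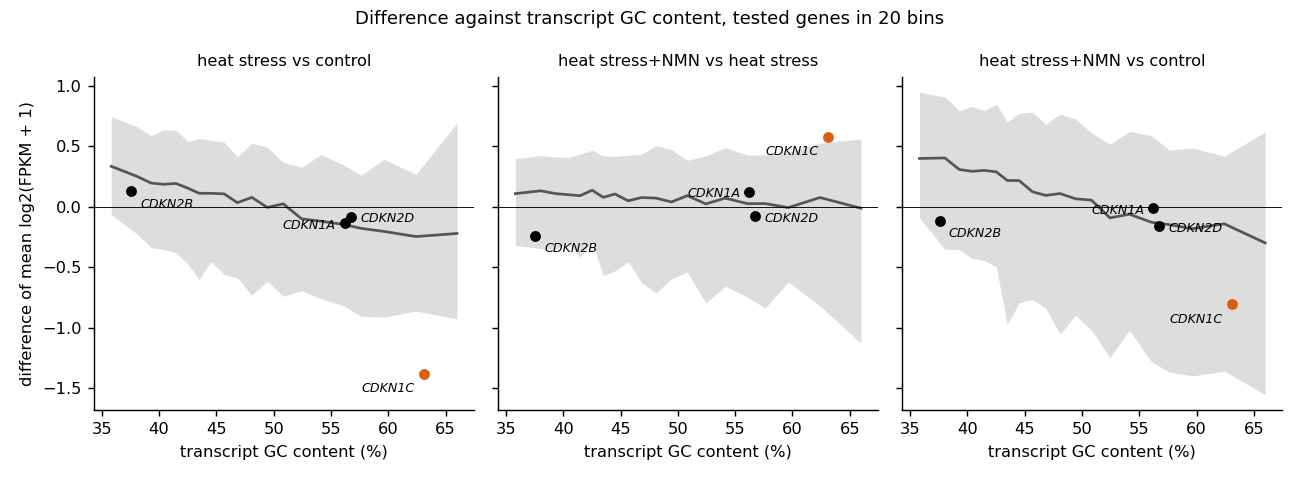
Difference of mean log2(FPKM + 1) (vertical axis) against the GC content of the longest transcript (horizontal axis, %), with the median (line) and the 5th to 95th percentile (band) of tested genes in 20 bins of GC content and points for the 4 tested CDK inhibitors. In the comparison of heat-stressed with control oocytes the median falls with GC content, and CDKN1C at 63.1% GC and -1.38 lies below the band.

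The 5 tested genes whose profile over the 6 samples was most like that of CDKN1C were LOC100153329, LOC110256101, RPL27, HAX1 and LOC110261516. Likeness was the root mean square difference of the log2(FPKM + 1) profiles, each centred on its own mean, and was between 0.167 and 0.214 for these genes. RPL27, a protein of the large ribosomal subunit, had 2.56 and 3.01 FPKM in control oocytes, 0.908 and 0.704 under HS and 1.54 and 0.829 under HS with NMN. HAX1, a mitochondrial protein that opposes cell death, had 5.90 and 6.76 FPKM in control oocytes, 2.09 and 2.80 under HS and 3.91 and 3.25 under HS with NMN. For both genes the heat-stressed samples were below and the control samples above the NMN-supplemented ones. The exception was the second NMN-supplemented sample of RPL27, which lay between its heat-stressed samples. As the genes were picked for their likeness to CDKN1C, a like order of the groups follows from that choice. The GC content of RPL27 and HAX1 was 46.6% and 52.3%, below that of CDKN1C.

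Genes around CDKN1C were looked at because it lies in an imprinted cluster. SLC22A18, 10.3 kb away, was listed at 0 in every sample, and KCNQ1, 30.3 kb away, did not exceed 0.115 FPKM. PHLDA2, 35.6 kb away and chosen here after its values were seen, had 3.99 and 0.858 FPKM in control oocytes, 4.25 and 0.876 under HS and 2.11 and 0.315 under HS with NMN, so that the 2 samples of each group differed by more than the group means did. NAP1L4, a histone chaperone 48.0 kb away, had a log2 difference of -0.30 between heat-stressed and control oocytes with a standard error of 0.14 and an adjusted P of 0.257 by limma. TSSC4, 374 kb away, fell by 0.99 on the log2 scale between NMN-supplemented and control oocytes (SE 0.17, adjusted P = 0.0240 by limma), with 3.08 and 2.75 against 1.26 and 0.706 FPKM. CD81, beside TSSC4, had -0.22 in that comparison (SE 0.19, adjusted P = 0.410 by limma). Of the 4 tested genes of the cluster other than CDKN1C, 1 was called in NMN-supplemented against control oocytes, where 21.5% of all tested genes were, and 0 in the other comparisons.

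The pathway around the inhibitors was described by 8 lists with 107 genes in the table, of which 41 were tested. At an unadjusted P under 0.05, 10 of the 41 passed between heat-stressed and control oocytes (24.4%), 8 when NMN was added to HS (19.5%) and 15 between NMN-supplemented and control oocytes (36.6%), beside 22.8%, 13.6% and 41.3% of all tested genes. Their median differences were 0.03, 0.10 and 0.10, beside 0.05, 0.08 and 0.11 for all genes. After adjustment, 8 of the 41 (19.5%) were called between NMN-supplemented and control oocytes, 6 higher and 2 lower, beside 21.5% of all tested genes, and 0 in the other comparisons. The calls of single lists below are all from that comparison and have the same 21.5% as their background.

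Of the targets of the inhibitors, 9 of 14 CDK and cyclin genes were tested and 1 was called, beside the 21.5% of all tested genes. Of the INK4 partners, CDK6 and the D-type cyclins CCND1 and CCND2 did not exceed 0.0366 FPKM, while the D-type cyclin CCND3 had 0.897 to 1.31 FPKM and was tested. CCNA2, the cyclin A that works with CDK2 and CDK1, had 15.4 and 13.2 FPKM in control oocytes, 16.5 and 18.3 under HS and 21.5 and 22.9 under HS with NMN. Its samples did not overlap between any groups, and it rose by 0.60 on the log2 scale between control and NMN-supplemented oocytes (SE 0.13, adjusted P = 0.0317 by limma). CCNB1, the cyclin B of the CDK1 complex, differed by 0.37 in the same comparison and was not called (SE 0.13, adjusted P = 0.0845 by limma). CDK4, the partner of INK4 proteins, had 3.43 and 1.45 FPKM in control oocytes, 1.58 and 0.896 under HS and 0.129 and 0.966 under HS with NMN, and was not called with an adjusted P of 0.0856 by limma.

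Of the kinases and phosphatases that switch CDK1, 3 of 9 genes were tested. WEE2, the oocyte kinase that holds CDK1 inactive during the GV arrest, had 157 and 134 FPKM in control oocytes, 201 and 198 under HS and 250.99 and 249.3 under HS with NMN. Without overlap between groups, it rose by 0.78 on the log2 scale between control and NMN-supplemented oocytes (SE 0.12, adjusted P = 0.0218 by limma). CDC25B, a phosphatase that activates CDK1, differed by -0.88 and was not called (SE 0.25, adjusted P = 0.0592 by limma), and CCNH, the cyclin of the CDK-activating kinase, by 0.10 with an adjusted P of 0.626.

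Ubiquitin ligase genes act on the inhibitors after translation, and 10 of 15 were tested. DTL, which directs p21Cip1 to breakdown, had 3.73 and 2.82 FPKM in control oocytes, 4.33 and 4.998 under HS and 5.68 and 5.87 under HS with NMN, and was the 1 gene of the list called (0.67, SE 0.15, adjusted P = 0.0348 by limma, NMN-supplemented against control). FBXL12, an F-box protein, differed by -0.52 and CUL4B, a ligase scaffold, by 0.45 in that comparison, with adjusted P of 0.0554 and 0.0579 by limma.

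Upstream, 17 of the 18 transcriptional regulators were below the minimum. The tested one, KLF4, a factor known to activate CDKN1A, had 5.85 and 4.93 FPKM in control oocytes, 9.09 and 10.2 under HS and 10.1 and 9.93 under HS with NMN. Both heated groups were above control and overlapped with each other, and KLF4 rose by 0.79 between control and NMN-supplemented oocytes (SE 0.13, adjusted P = 0.0224 by limma), while the difference of 0.74 after heat stress alone was not called (adjusted P = 0.111 by limma).

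Of 20 genes known to respond to stress and DNA damage, 8 were tested and 2 were called, both between NMN-supplemented and control oocytes (21.5% of all tested genes) and in opposite directions. RRM2B, a ribonucleotide reductase subunit, rose by 0.89 (SE 0.12, adjusted P = 0.0210 by limma), from 16.7 and 14.2 to 30.3 and 28.4 FPKM. SFN, the 14-3-3 sigma protein, fell by 2.08 (SE 0.30, adjusted P = 0.0210 by limma), from 15.6 and 22.3 to 5.04 and 2.599 FPKM. PLK3, a polo-like kinase, had 6.17 and 5.53 FPKM in control oocytes, 3.21 and 2.70 under HS and 5.47 and 5.30 under HS with NMN. Its differences of -0.80 between heat-stressed and control and 0.69 when NMN was added to HS were not called, with adjusted P of 0.111 and 0.222 by limma.

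Downstream, 5 of 18 RB and E2F genes were tested and 0 were called in any comparison by limma, with 1, 1 and 0 at an unadjusted P under 0.05. E2F1, an activator of S-phase genes, differed by -0.41 between heat-stressed and control oocytes (SE 0.14, adjusted P = 0.183 by limma), and E2F4 by 0.45 between NMN-supplemented and heat-stressed oocytes (SE 0.18, adjusted P = 0.360 by limma). RBL2, the RB relative p130, differed by 0.13 in both of these comparisons and 0.26 between NMN-supplemented and control oocytes. Of the other genes named for the family, CDKN2AIP, whose protein binds ARF, rose by 0.52 between control and NMN-supplemented oocytes (SE 0.11, adjusted P = 0.0343 by limma), and CDKN3 and CDKN2AIPNL were below the minimum.

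**Figure D5:**
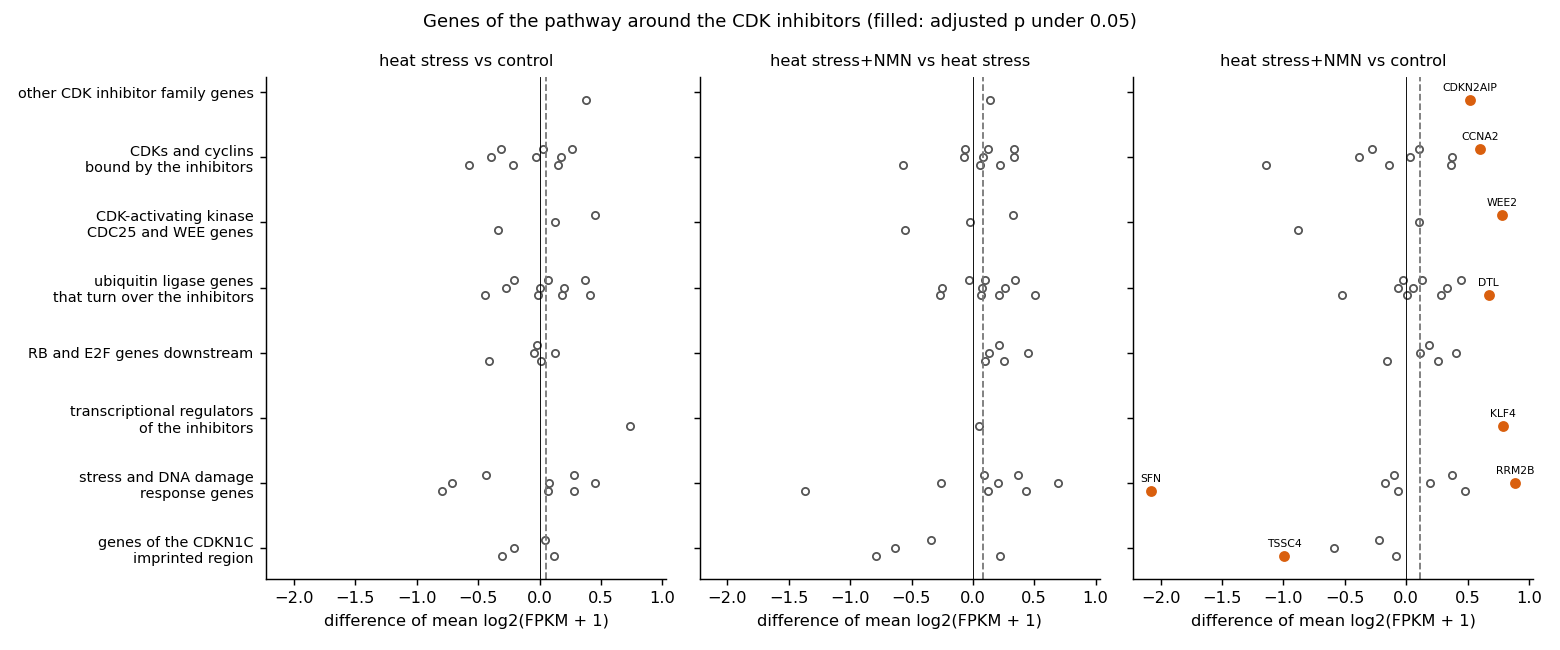
Difference of mean log2(FPKM + 1) (horizontal axis) of the 41 tested genes of 8 lists (rows) in the 3 comparisons, with a filled and named point for each of the 8 genes with an adjusted P under 0.05, open points for the rest and a dashed line at the median of all tested genes. The filled points are all in the comparison of NMN-supplemented with control oocytes, from SFN at -2.08 to RRM2B at 0.89.

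Of 13 tested oocyte markers, 5 were called between NMN-supplemented and control oocytes, beside 21.5% of all tested genes. All 5 were lower (ZAR1, PADI6, ZP3, ZP4 and GDF9, by 0.94 to 2.24), while 3 of the tested markers had positive differences. These 5 and the 8 calls of the pathway lists made 13 called genes. The 2 groups did not overlap for any of them, so leaving out 1 sample could not turn their direction. With all samples kept, 0 of the 13 were called with no minimum and with the GC trend removed together with a replicate block, 1 with a minimum of 0.1 FPKM, 3 with the scaling outside the mitochondrial genome and 7 with the GC trend removed. Of the 13, 12 were called without either heat-stressed sample, 7 without the first control sample and 0 without the second or without either NMN-supplemented sample, where 0, 1 and 1 of all tested genes were called instead of 1015. Such a fit has 1 sample in a group, which is assumed to vary like the samples of the other groups, and rests on fewer samples. The differences then ran from -2.47 to -2.01 for ZAR1 and from 0.777 to 0.995 for RRM2B. For CDKN1C, the difference between heat-stressed and control oocytes stayed within -1.47 to -1.30 when samples were left out in turn.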

How the data were processed

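RNA was sequenced from 6 samples of porcine oocytes, 2 for each group. Trimming with cutadapt and alignment to susScr11 with tophat2 are given in the methods, and the submitters' processing notes name Cufflinks 2.2.1, Cuffnorm and Cuffdiff. The authors deposited FPKM per gene and sample, which are used here. They also deposited fold changes, p-values, q-values and group FPKM of their own comparisons, which were not used. Counts were not used here and the depth is unknown: only 25.0% to 29.2% of low FPKM values lay within 0.1 of a whole number of fragments at the best spacing, against 20% for even spread. The sum of FPKM per sample was 163929 to 290136, of which 61.7% to 74.7% was mitochondrial.

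A model of the 3 groups was fitted to log2(FPKM + 1) of all 6 samples with limma 3.58.1 (R 4.3.3), with a variance trend, for the 4713 genes with a mean of at least 1 FPKM, with Benjamini-Hochberg adjustment over these genes. The fit was tested on simulated data, and tables were made in Python 3.11.15. The members and all gene lists were chosen with earlier results of these data known. Named were the members, the 3 genes with the smallest P in each list and list genes with an adjusted P under 0.05. The 5 genes most like CDKN1C and genes sharing a member's locus were also named. PHLDA2, BMP15, MOS, SERPINE2, CCND3, LOC100513953 and genes cited for low values were named outside these rules. Alternatives were another pseudocount, minimum, scaling, block, sample choice and moderation, a removed GC trend, and leaving out each sample. Same-numbered samples were checked for shared deviations from their group means.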

Additional observations from a re-analysis of the deposited data

How the results depend on the processing

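With 2 samples per group and no counts, low genes such as CDKN1B and CDKN2C are limited most. No value reversed for a called result. The difference of CDKN1C kept its direction under each of the 18 alternatives that gave it a value (it is below the minimum of 5 FPKM). Several of these cannot change a difference, namely a lower minimum, the block, the compared groups alone, the moderation and leaving out a sample of the third group. Since no groups overlapped for CDKN1C, leaving out any other sample could not turn the direction of its difference. Between heat-stressed and control oocytes it was -2.10 with a pseudocount of 0.1 FPKM, -1.57 when scaled to the sum outside the mitochondrial genome and -1.06 with the GC trend removed, with or without the replicate block. Between NMN-supplemented and heat-stressed oocytes it was 0.997 and 0.76 with that pseudocount and that scaling, and between NMN-supplemented and control oocytes -1.10 with the pseudocount and -0.49 with the GC trend removed, with or without the block. A smaller pseudocount enlarges log2 differences of low genes by construction, and for the rest the cause was not tested. That scaling moved the median of all genes to -0.22 and 0.35 in the first 2 comparisons, because LOC100513953 held 13.9% of the FPKM of the first heat-stressed sample and 0% of the others. Leaving out each sample gave -1.47 to -1.30, 0.49 to 0.66 and -0.90 to -0.72.

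Genes with an adjusted P under 0.05 numbered 0 between heat-stressed and control oocytes, but 84 (12 higher, 72 lower) with the scaling outside the mitochondrial genome, and 1 each when LOC100513953 was also left out of that sum, with no trend in the moderation and with the GC trend removed. When NMN was added to HS the number was 0, but 38 (16 higher, 22 lower), 1 and 1 under the first 3 of these. Between NMN-supplemented and control oocytes it was 1015 (583 higher, 432 lower), and 86 (15 higher, 71 lower) and 546 (375 higher, 171 lower) with a minimum of 0.1 and 5 FPKM, 0 with no minimum, 281 (37 higher, 244 lower) with the scaling outside the mitochondrial genome, 558 (242 higher, 316 lower) without LOC100513953 as well, 450 (235 higher, 215 lower) with the GC trend removed and 0 with the GC trend removed and the block. Leaving out samples gave 0 to 1, 0 to 2 and 0 to 798, and the cause of these differences was not tested. Of the values of the other inhibitors 139 of 174 moved by less than their spread. Many of these could not move, since a lower minimum, the block, the compared groups alone, the moderation and leaving out a third-group sample cannot change a difference. Values of single genes lost an adjusted P under 0.05 more often than they gained it.

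Correlations across genes between the deviations of samples with the same number were -0.03, -0.01 and 0.01. Same-numbered samples thus shared no deviation over the genes as a whole. Whether they were collected together cannot be told from this, as single genes or batches without such a shift would not be seen. With the replicate block, genes called between NMN-supplemented and control oocytes numbered 445 (192 higher, 253 lower), and 0 in the other comparisons, with 937 and 527 at an unadjusted P under 0.05.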
